A study of Sus scrofa with 48 samples.

Results

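The transcripts described here encode the enzymes that build cholesterol, the proteins that control this synthesis and the proteins that move cholesterol inside the cell and out of it. The tissue was the subcutaneous fat (SCAT) of growing pigs. The genes were listed by their known role, and the list held 33 genes: 20 enzymes of synthesis, 4 proteins that control the transcription factor SREBP-2, and 9 genes of uptake and efflux. A gene was tested when the scanner software marked a probe named for it as well above background in 9 or more of a group's 12 arrays, and the brightest such probe stood for the gene. By this rule 28 of the 33 genes were tested, among 11083 genes in all. They comprised 16 synthesis genes, all 4 control genes and 8 uptake and efflux genes. *MVD* and *EBP* had no named probe on the array. *HMGCS1*, *DHCR7* and *ABCG1* had probes that were not well above background often enough, on 8 of 48 arrays at best, and they are not counted below.

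The 48 castrated male pigs, 132 days of age in the labels, formed a 2 x 2 design with 12 pigs and 12 arrays in each group. They came from a line selected for low residual feed intake (RFI), which eats less than its growth predicts and is therefore the more efficient line, or from a line selected for high RFI. In both lines, 12 pigs ate a diet high in fat and fiber (HF), in which plant oils and straw replaced part of the starch, and 12 ate a low-fat diet rich in starch (LF). Each pig gave 1 piece of whole tissue, which holds adipocytes together with other cells, so that fewer cells of a type and less RNA per cell cannot be told apart in any value below.

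Cholesterol is built from acetyl units through mevalonate and a chain of isoprenoid units to squalene, which is closed into the first sterol, lanosterol, and then trimmed to cholesterol. When sterols are scarce, the carrier SCAP takes SREBP-2, the product of *SREBF2*, to the Golgi, where it is cleaved into an active factor that induces the genes of this chain. When sterols are plentiful, INSIG1 and INSIG2 hold SCAP in the endoplasmic reticulum. Oxidized sterols activate the LXR receptors, encoded by *NR1H2* and *NR1H3*, which induce the export pump gene *ABCA1* and *MYLIP*, whose product degrades a receptor for lipoproteins. Adipocytes keep a large share of their cholesterol, as free sterol, at the surface of the lipid droplet.

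Levels are given as the log2 of the spot's brightness after background subtraction, relative to the median kept probe of the same array, so that a level of 0 is the level of that median probe. A gene was called when its raw p was under 0.01, its fold change was over 1.1 and its Benjamini-Hochberg adjusted p over all 11083 genes was under 0.08, in limma fitted to all 48 arrays. The proportion of probes well above background lay between 62.2% and 81.9% per array, and no spot was saturated. Array weights, a measure of how closely each array follows its group over all genes, ranged from 0.339 to 2.03. They were under 0.5 on 3 arrays (HF high RFI pig 7, LF low RFI pig 7 and LF high RFI pig 12). Leaving these arrays out changed no count of members called for line, for the interaction or for diet within a line, which was 0 with and without them, and the diet counts without them are given with the diet results. The 4 groups were spread evenly over 6 slides and 2 scan dates, but not over the positions on a slide: 1 position held 5 HF and 1 LF arrays, and another 1 HF and 5 LF arrays. The tissue showed adipocyte markers at a summed level of 11.2 to 11.7 in all groups, and the stromal, macrophage and other lists are given with the diet results.

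Probes of the called genes are shown first (all kept probes of *NSDHL*, *GGPS1* and *INSIG2*, and the probe that stood for *MSMO1*), because the probes of 1 gene did not all give the same diet difference. Each is 60 bases long, and its first 30 bases are printed 5′ to 3′ as the scanner files give them. Capitals mark bases that it shares, in a run of at least 15, with another probe of the same gene, so that such probes are not independent readings.
NSDHL probe A_72_P497739: agacttcTGTTTTCTTCTCTGCCTTTGTGC
NSDHL probe A_72_P585711: TGTTTTCTTCTCTGCCTTTGTGCGAGGCAG
NSDHL probe A_72_P114011: acatttctgataggctcggctgagagcaag
NSDHL probe A_72_P467222: atcttacaggagaagacagttctgggcgcc
NSDHL probe A_72_P559379: ttggcaccaagaacgtcattgaaacttgca
GGPS1 probe A_72_P627375: gaaacctcttctgaatgtcattgtgctaca
GGPS1 probe A_72_P252997: cagtagcattgcattttacctgattggttc
GGPS1 probe A_72_P670393: cagttggtgcttgagtagaaagagaagtag
MSMO1 probe A_72_P098986: gtttgaggtgattctctttcttcgaggagt
INSIG2 probe A_72_P140776: gtgtgtgtgtatacacacacatacatatat
INSIG2 probe O4287: gtttcaacagtattgcatctcgtcctaaaa

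The first comparison asked whether the diet changed these transcripts over both lines. *GGPS1*, *MSMO1* and *NSDHL* among the synthesis genes and *INSIG2* among the control genes were down-regulated by the HF diet, and no member was up-regulated. No uptake and efflux gene was called. The 4 called members were 14.3% of those tested, beside 12.6% of all genes tested (percent called), and over all genes 9.33% were called downward and 3.27% upward. Of all called genes 25.9% were upward, against 52% with 75th percentile scaling of the arrays and 39.5% with quantile normalization, and under either of these *INSIG2* was the only member called. *INSIG2* was also the only member called with array position as a block, beside 8.97% of all genes, and in a two-way analysis of variance without limma's moderation, beside 12.2%. Without the 3 arrays of lowest weight, a choice made after seeing the data, 6 members were called, the same 4 with *LSS* and *INSIG1*, beside 15% of all genes. The count of calls was therefore close to the background. A raw p under 0.05 was reached by 10 of the 28 members (35.7%), beside 25.9% of all genes, and no test compared these shares. The median log2 fold change (HF minus LF) was -0.13 over the 16 synthesis genes, -0.11 over the 4 control genes and -0.07 over the 8 uptake and efflux genes, against -0.04 over all genes. Of the 16 synthesis genes 11 lay below 0, as did 6 of the 8 uptake and efflux genes, while 62.3% of all genes did.

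**Figure D1:**
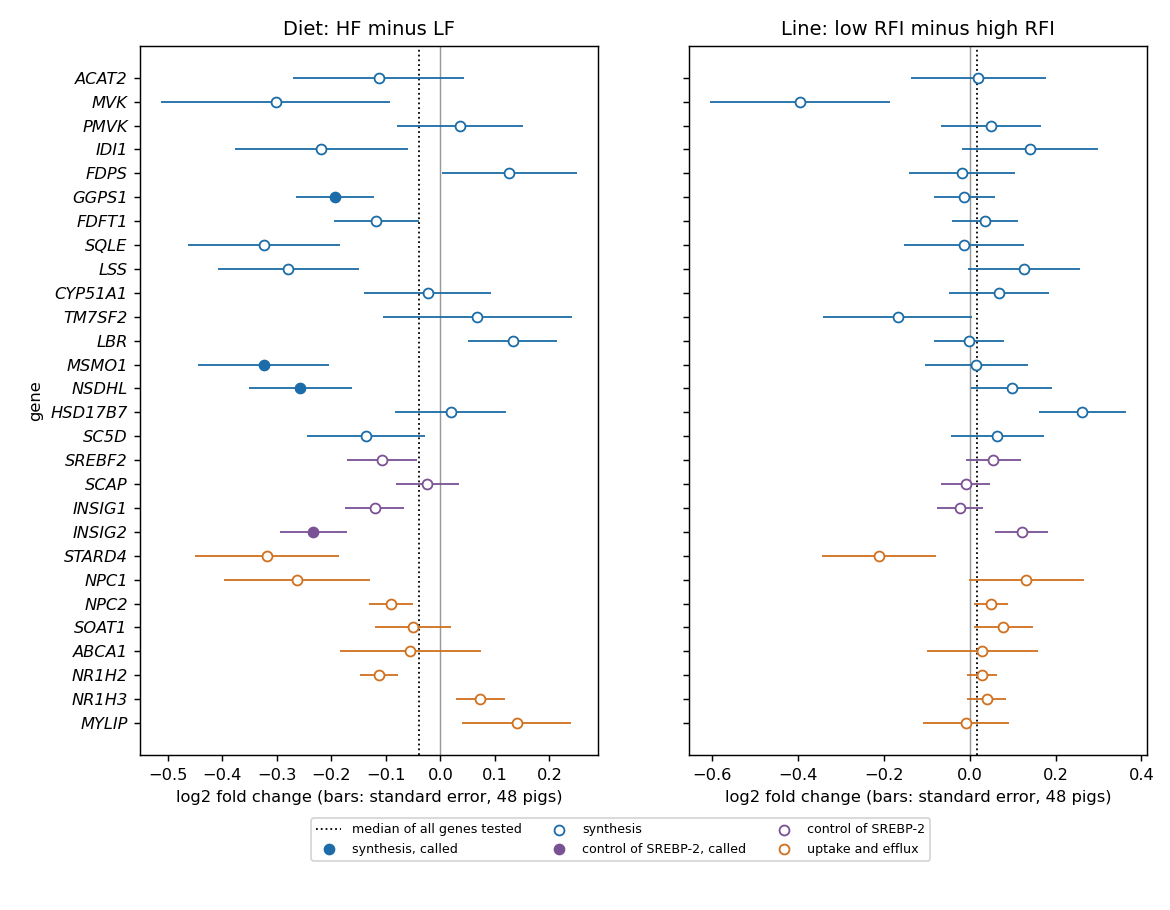
Log2 fold change of each of the 28 members (x axis; points, with bars for the standard error over 48 pigs) for diet on the left and line on the right, with filled points for called genes and a dotted line at the median of all 11083 genes. For diet 4 points are filled, all left of 0, and for line none is.

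*GGPS1* encodes the enzyme that makes geranylgeranyl diphosphate, a branch of the pathway used to attach lipid anchors to proteins. Its level ranged from 1.83 to 2.22 with a median of 1.97 in HF low RFI pigs, and from 1.38 to 2.21 with a median of 2.08 in HF high RFI pigs. It ranged from 1.74 to 2.48 with a median of 2.26 in LF low RFI pigs, and from 1.62 to 2.54 with a median of 2.33 in LF high RFI pigs. All 24 HF pigs lay below the median of the LF pigs, and 14 of the 24 LF pigs lay above every HF pig, but the ranges overlapped because both LF groups had a few low pigs. The lowest HF pig and the lowest LF pig were measured on 2 of the 3 arrays of lowest weight. *GGPS1* fell by 0.19 ± 0.07 (log2, SE, n = 48; limma, adjusted p = 0.071), and its level on the linear scale fell by 12.5%. In the fit over all 44356 kept probes, of which 13.1% were called for diet, 7 of the 67 kept probes of the members were called, all of them lower. The other probes of *GGPS1* were among them, at -0.19 ± 0.07 and at -0.23 ± 0.04 (SE, limma, adjusted p = 0.0534 and 0.000161).

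*MSMO1* encodes the oxidase that starts the removal of the methyl pair that is left on the sterol after lanosterol demethylase has acted. Its level ranged from 2.83 to 3.90 with a median of 3.18 in HF low RFI pigs, and from 2.39 to 3.79 with a median of 3.40 in HF high RFI pigs. In LF pigs it ranged from 2.75 to 4.16 with a median of 3.66 in the low RFI line, and from 2.76 to 4.26 with a median of 3.69 in the high RFI line. The groups overlapped, with 19 of 24 HF pigs below the LF median. *MSMO1* fell by 0.32 ± 0.12 (log2, SE, n = 48; limma, adjusted p = 0.071), and its linear level fell by 20.1%. The other 3 kept probes of *MSMO1* gave -0.29, -0.29 and -0.27, none of them called.

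*NSDHL* encodes the dehydrogenase that acts after MSMO1 in this removal. Its level ranged from 0.45 to 1.46 with a median of 1.0 in HF low RFI pigs and from 0.56 to 1.26 with a median of 0.86 in HF high RFI pigs. In LF pigs it ranged from 0.53 to 1.61 with a median of 1.29 in the low RFI line, and from 0.45 to 1.80 with a median of 1.14 in the high RFI line. These ranges overlapped widely, and 21 of 24 HF pigs lay below the LF median. *NSDHL* fell by 0.26 ± 0.09 (log2, SE, n = 48; limma, adjusted p = 0.0685), and its linear level fell by 16.3%. Its 5 probes split into 2 sets. The first 3 printed above gave -0.26, -0.29 and -0.24, and 2 of these, which share a run of 53 bases, were called. The remaining 2 gave -0.08 and -0.07 and were not called, so that the down-regulation of *NSDHL* depended on which probes were read. Whether the 2 sets lie on the same transcript was not tested.

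**Figure D2:**
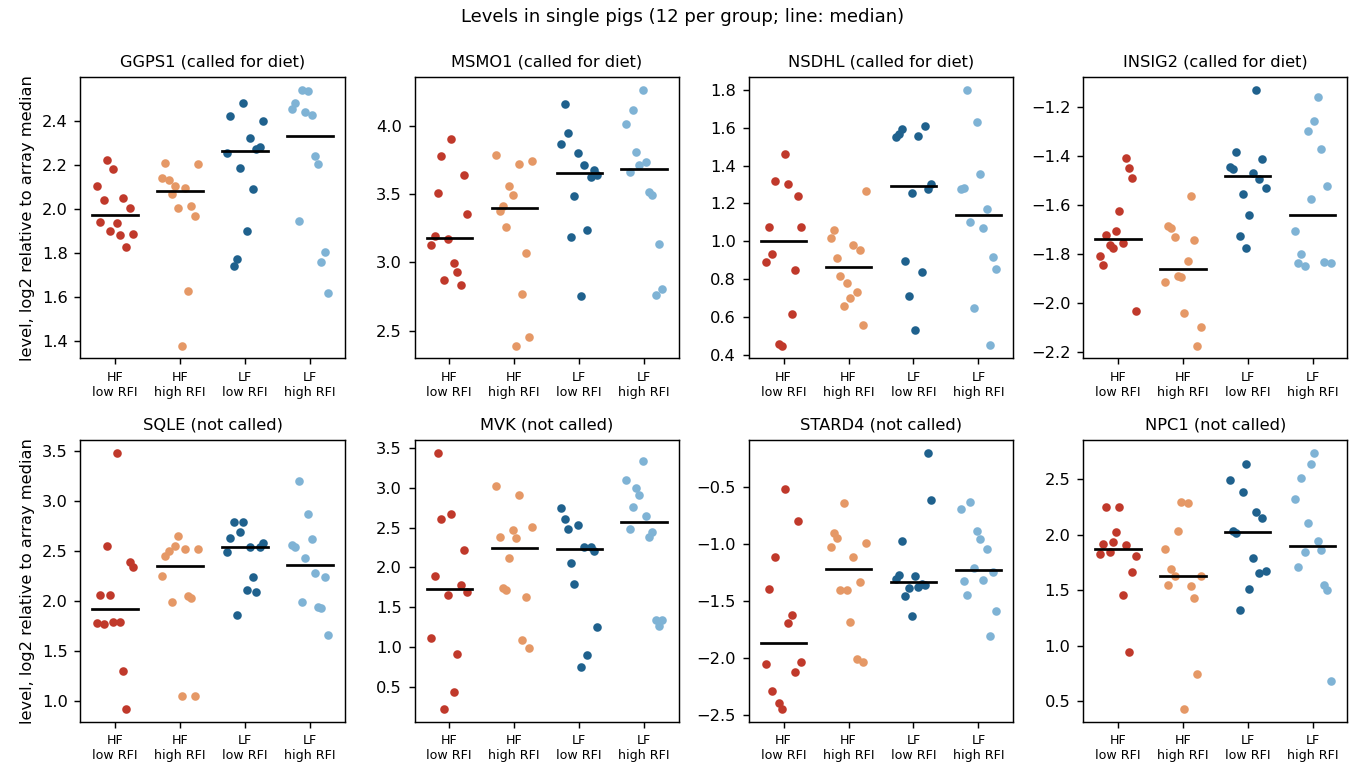
Level of 8 genes in each pig (points; y axis, log2 relative to the array median) by group of 12, with a line at the group median. The upper row holds the genes called for diet, where HF groups lie lower but overlap LF groups, and the lower row holds the 2 synthesis and the 2 uptake and efflux members with the largest uncalled diet differences.

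Of the uncalled synthesis genes, *SQLE*, the epoxidase that commits squalene to sterols, and *MVK*, mevalonate kinase, had the largest diet differences. *SQLE* ranged from 0.92 to 3.48 (median 1.93) in HF low RFI, 1.06 to 2.65 (2.35) in HF high RFI, 1.86 to 2.80 (2.55) in LF low RFI and 1.67 to 3.20 (2.36) in LF high RFI pigs. Its log2 fold change was -0.32 ± 0.14 (SE, n = 48; limma, adjusted p = 0.129), and the widest range was that of the HF low RFI pigs. A probe of *SQLE* that shares a run of 57 bases with this one gave -0.34. The probes that share no such run gave -0.18 and -0.07, so that the size of the difference depended on the probe. *MVK* ranged from 0.22 to 3.43 (median 1.73) in HF low RFI, 0.99 to 3.02 (2.25) in HF high RFI, 0.75 to 2.74 (2.23) in LF low RFI and 1.26 to 3.33 (2.56) in LF high RFI pigs. Its log2 fold change was -0.30 ± 0.21 (SE, n = 48; limma, adjusted p = 0.377), and it was -0.10 with array position as a block. The other kept probes of *MVK* gave -0.34, -0.34 and -0.20, the last from the probe that shares no run of bases with the rest. *MVK* was the member whose level differed most between pigs of a group, with an SD of 0.76, and 96.8% of all genes had a lower one. A pair of *MVK* probes with the same 60 bases differed over the 48 pigs with an SD of 0.11.

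The other synthesis genes did not pass the test. *LSS*, which closes squalene into lanosterol, had a log2 fold change of -0.28 ± 0.13 (SE, n = 48; limma, adjusted p = 0.162), and *IDI1*, the isomerase of the isoprenoid units, had -0.22 ± 0.16 (adjusted p = 0.40). *SC5D* (-0.14), *FDFT1* (-0.12), *ACAT2* (-0.11) and *CYP51A1* (-0.02) lay below 0. *HSD17B7* (0.02), *PMVK* (0.04), *TM7SF2* (0.07), *FDPS* (0.13) and *LBR* (0.13) lay above it. The 4 probes of *FDPS*, which makes farnesyl diphosphate, the substrate of both squalene and geranylgeranyl diphosphate, were all above 0, between 0.06 and 0.20. The 4 probes of *CYP51A1*, the demethylase of lanosterol, all lay within 0.05 of 0. The sign of *CYP51A1* turned under other scalings of the arrays, and those of *HSD17B7*, *PMVK* and *TM7SF2* turned under other settings. *FDPS* was at -0.015 within the first scan date, and *IDI1* and *LSS* were at 0.13 and 0.0090 within the second.

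**Figure D3:**
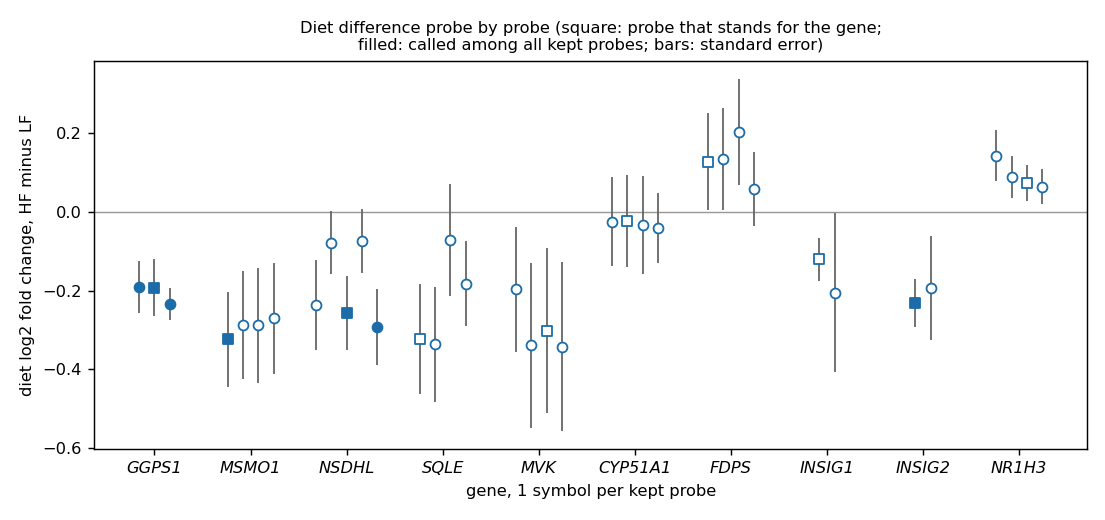
Diet log2 fold change (y axis, HF minus LF) of every kept probe of 10 members (x axis), with bars for the standard error. Squares mark the probe that stood for the gene, and filled symbols mark called probes, of which *GGPS1* has 3, *NSDHL* 2, *MSMO1* 1 and *INSIG2* 1.

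Among the control genes, *INSIG2* passed the test with the smallest adjusted p of all members. Its level ranged from -2.03 to -1.41 with a median of -1.74 in HF low RFI pigs, and from -2.17 to -1.57 with a median of -1.86 in HF high RFI pigs. In LF pigs it ranged from -1.78 to -1.13 with a median of -1.48 in the low RFI line and from -1.85 to -1.16 with a median of -1.64 in the high RFI line. The ranges overlapped, 7 HF pigs lay below every LF pig and 6 LF pigs lay above every HF pig. *INSIG2* fell by 0.23 ± 0.06 (log2, SE, n = 48; limma, adjusted p = 0.00972), and its linear level fell by 14.9%. The probe that stood for it begins with a repeat of 2 bases, as printed above, and 6 probes of other names on the array share a run of at least 15 bases with it. The other probe of *INSIG2*, which has no such neighbour, gave -0.19 ± 0.13 and was not called (adjusted p = 0.371). The reference gene table holds 2 entries named *INSIG2*, of which one is a pseudogene, and whether the probes also detect the pseudogene was not tested. The values of *INSIG1* (-0.12 ± 0.05, adjusted p = 0.144), *SREBF2* (-0.11 ± 0.06, adjusted p = 0.297) and *SCAP* (-0.02 ± 0.06, adjusted p = 0.834) did not pass the test (SE, n = 48; limma).

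Among the uptake and efflux genes, *STARD4*, a carrier of sterol between membranes, and *NPC1*, which releases cholesterol from the lysosome, had the largest differences. *STARD4* ranged from -2.45 to -0.51 (median -1.86) in HF low RFI, -2.04 to -0.64 (-1.22) in HF high RFI, -1.63 to -0.20 (-1.33) in LF low RFI and -1.81 to -0.63 (-1.23) in LF high RFI pigs. Its log2 fold change was -0.32 ± 0.13 (SE, n = 48; limma, adjusted p = 0.114). Of the 8 HF pigs that lay below every LF pig, 6 were HF low RFI pigs and 2 were HF high RFI pigs, and all groups overlapped. *NPC1* ranged from 0.94 to 2.25 (median 1.87) in HF low RFI, 0.43 to 2.29 (1.63) in HF high RFI, 1.32 to 2.64 (2.03) in LF low RFI and 0.68 to 2.73 (1.90) in LF high RFI pigs. Its log2 fold change was -0.26 ± 0.13 (SE, n = 48; limma, adjusted p = 0.207), and the 4 groups overlapped.

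*NR1H2*, the LXR receptor found in most tissues, had the narrowest spread between pigs of all members, an SD of 0.11. It lay below 0 with an adjusted p of 0.0283 in limma, but its log2 fold change of -0.11 ± 0.03 (SE, n = 48) was smaller than the fold change of 1.1 required, so it was not called. Its levels were 4.90 to 5.30 and 4.81 to 5.25 in HF low and high RFI pigs, and 4.96 to 5.33 and 5.06 to 5.28 in LF low and high RFI pigs, with 21 of 24 HF pigs below the LF median. *NR1H3*, the LXR receptor enriched in adipose tissue, liver and macrophages, was at 0.07 ± 0.05 (adjusted p = 0.313). *NPC2*, the partner of NPC1, was at -0.09, *SOAT1*, which esterifies cholesterol for storage, at -0.05, *ABCA1* at -0.05 and *MYLIP* at 0.14, all uncalled. Neither LXR target gene was called in either direction.

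The calls differed between treatments of the arrays and between the scan dates taken alone. With all arrays kept but weighted there were 9, beside 18.5% of all genes. Among these 9 members *LBR* was called upward, and *STARD4* was the only uptake and efflux gene. On the first scan date (24 pigs) *IDI1*, *LSS*, *MSMO1*, *NSDHL* and *INSIG1* were called, beside 5.96% of all genes, and the median of the synthesis genes was -0.19. On the second (24 pigs) no member was called, beside 2.37% of all genes, and that median was -0.01. *LSS* was at -0.57 ± 0.13 on the first date and at 0.01 ± 0.19 on the second (SE, limma). The difference between the dates was itself tested in limma over all genes: 2 members had a raw p under 0.05 (*IDI1* and *LSS*) and the smallest adjusted p of a member was 0.999, so that no member's diet value was shown to differ between the dates. Of all 11083 genes 1 had an adjusted p under 0.08. *GGPS1* (-0.18 and -0.20), *STARD4* (-0.32 and -0.32) and *NPC1* (-0.26 and -0.26) had nearly the same value on both dates.

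None of 7 adipocyte, 12 macrophage, 6 lymphocyte, 6 endothelial, 5 skeletal muscle and 3 red blood cell markers tested was called for diet, beside 12.6% of all genes. The adipocyte markers *FABP4* and *CIDEC* were at -0.11 and -0.18 and missed the threshold narrowly (limma, raw p = 0.0116 and 0.0147). Of 6 stromal markers *PDGFRA*, a marker of adipocyte precursors, was called upward (0.31 ± 0.11, SE, n = 48; limma, adjusted p = 0.0673), and all 6 lay above 0 with a median of 0.18. The summed level of the stromal list ranged from 9.99 to 10.6 and 10.2 to 10.8 in HF low and high RFI pigs, and from 9.68 to 10.6 and 9.66 to 11.1 in LF low and high RFI pigs. The summed adipocyte level ranged from 11.2 to 11.7 over the groups and overlapped in all of them. All 5 skeletal muscle markers and all 3 red blood cell markers lay below 0, with medians of -0.13 and -0.12. The part of these cells in the diet results was not tested.

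The line comparison asked whether the more efficient pigs differed in these genes. No member was called for line, beside 1.16% of all genes tested (129 genes in limma; 0.776% upward and 0.388% downward), and 1 member (3.57%) had a raw p under 0.05, beside 10.2% of all genes. This was *HSD17B7*, a late reductase of the pathway, which ranged from 2.04 to 3.05 with a median of 2.49 in low RFI pigs and from 1.27 to 2.85 with a median of 2.29 in high RFI pigs. Its log2 fold change (low minus high RFI) was 0.26 ± 0.10 (SE, n = 48; limma, adjusted p = 0.277), and its other probe gave 0.28. *MVK* had the largest size of difference, at -0.39 ± 0.21 (adjusted p = 0.539), with levels of 0.22 to 3.43 in the low RFI line and 0.99 to 3.33 in the high RFI line. Within the HF diet no member was called for line, beside 0.00902% of all genes (1 gene, upward), nor within the LF diet, beside 0.0632% (0.0451% upward and 0.018% downward). *HSD17B7* was at 0.39 ± 0.14 in LF and at 0.13 ± 0.14 in HF pigs (SE, limma, adjusted p = 0.545 and 1). The median over the synthesis genes was 0.03, over the uptake and efflux genes 0.03, and over all genes 0.02.

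Whether the lines responded differently to the diet was tested by the interaction. No member and no gene of the 11083 was called (0% of all genes; 99 genes and no member had a raw p under 0.05). The largest difference was that of *STARD4*, whose diet value was -0.52 ± 0.19 in the low RFI line and -0.11 ± 0.19 in the high RFI line (SE, limma). The interaction was -0.41 ± 0.26, with a 95% interval from -0.93 to 0.11 (limma, adjusted p = 1). Within each line no member was called for diet, beside 2.49% of all genes in low RFI pigs (0.632% upward, 1.86% downward) and 1.52% in high RFI pigs (0.262% upward, 1.25% downward). A raw p under 0.05 was reached by 3 members in low RFI pigs (of 28, beside 14.9% of all genes) and by 4 in high RFI pigs (of 28, beside 13.8%). With array weights 6 members were called in low RFI pigs, beside 1161 of 11083 genes, and 3 in high RFI pigs, beside 6.16%. In high RFI pigs 2 members were called with slide as a block, beside 3.68% of all genes, and 2 with the replicate number as a block, beside 4.47%. The diet values of the 4 called members in each line were as follows. *MSMO1* was at -0.32 in the low RFI line and at -0.33 in the high RFI line, *NSDHL* at -0.25 and -0.26, *GGPS1* at -0.18 and -0.21, and *INSIG2* at -0.20 and -0.27.

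The synthesis genes varied together from pig to pig within the groups. After the group and slide means were removed, the median Pearson correlation over their 120 pairs was 0.56 over 48 pigs, against 0.01 over all pairs of genes tested, and 59.2% of the pairs exceeded 0.5 against 2.47% of all pairs. The closest pairs were *FDPS* with *ACAT2* (r = 0.84), both of early steps, and *MSMO1* with *CYP51A1* (r = 0.82), both of late steps. Synthesis genes and uptake and efflux genes had a median of 0.03 over 128 pairs. In the other settings of this paragraph only group means were removed, so that they differ from the main values in the slide means as well. There this median was 0.13 on the first and -0.06 on the second scan date. It was -0.09 with 75th percentile scaling and -0.17 with quantile normalization, so that its sign was not stable. These values share arrays and scaling, and are given as a description. The synthesis median was 0.43 on the first scan date, 0.65 on the second and 0.54 without the 3 arrays of lowest weight. It was 0.52 in HF and 0.63 in LF pigs, and 0.56 in the low RFI line and 0.62 in the high RFI line.

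**Figure D4:**
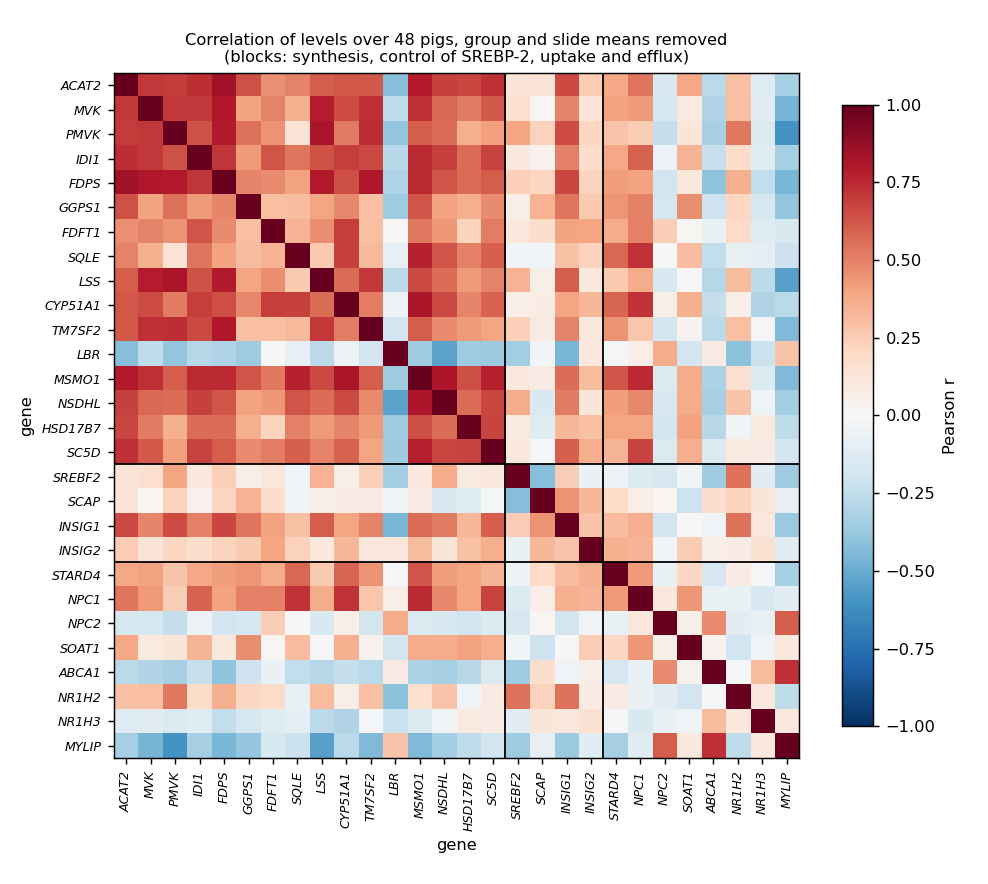
Pearson correlation (color scale from -1 to 1) of the levels of each pair of the 28 members over 48 pigs, after removal of group and slide means, with black lines between synthesis, control and uptake and efflux genes. The synthesis block is mostly red, *LBR* is the blue row in it, and *STARD4*, *NPC1* and *INSIG1* share its color.

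To set this against all other genes, each of the 11082 remaining genes was fitted in limma to the level of 1 anchor gene. Group and slide were in the model, and the cut-offs were a raw p under 0.01 and an adjusted p under 0.08. The fits within a scan date had group but not slide in the model. The anchors were picked after the values had been seen. Of all members, *MSMO1* had the highest median correlation with the other synthesis genes (0.73). Its fit restates the correlations above and is no separate support for them. With *MSMO1* as the anchor, 14 of the 15 other synthesis genes moved up with it, beside 16% of all genes tested, and *INSIG1*, *STARD4* and *NPC1* did so as well. The slope was 0.76 ± 0.09 log2 units per log2 unit for *CYP51A1* (SE, n = 48; limma, adjusted p = 5.73e-08), 0.92 ± 0.12 for *SQLE*, 0.80 ± 0.11 for *NPC1* and 0.75 ± 0.15 for *STARD4*. The exception in synthesis was *LBR*, a sterol reductase that is also a protein of the nuclear envelope, at -0.23 ± 0.10 (limma, adjusted p = 0.0872). *MYLIP* moved down with *MSMO1*, at -0.40 ± 0.13 (limma, adjusted p = 0.0196), beside 5.19% of all genes. Without the 3 arrays of lowest weight the same 14 synthesis genes, *STARD4* and *NPC1* moved with *MSMO1* (8.98% of all genes) and *MYLIP* and *INSIG1* did not pass. On the second scan date 13 synthesis genes did, beside 10.6% of all genes, and on the first 4, beside 0.162%.

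*INSIG1* is induced by SREBP-2 as part of its feedback. With *INSIG1* as the anchor 13 of 16 synthesis genes moved up, beside 14.4% of all genes, and *LBR* moved down, beside 3.4%. The count of synthesis genes was 5 without the 3 arrays of lowest weight, beside 5.71% of all genes. The transcript of *SREBF2* itself gave another picture: only *PMVK* of the 16 synthesis genes moved up with it, beside 10.8% of all genes, together with *NR1H2*, and *SCAP* moved down, beside 5.32%. With the first principal component and the detection rate of the arrays in the model, 9 synthesis genes did, beside 10.2% of all genes. No synthesis gene did with 75th percentile scaling or quantile normalization, beside 14.4% and 9.3% of all genes. The same held on the second scan date and without the 3 arrays of lowest weight, beside 14.8% and 7.87%. With *ABCA1* as the anchor, *MYLIP* was the only member that moved, at 0.56 ± 0.08 log2 units per log2 unit (SE, n = 48; limma, adjusted p = 0.000517), beside 0.0902% of all genes upward and 0.0812% downward. It passed without the 3 arrays of lowest weight too, and on the second scan date but not on the first. *ABCA1* and *MYLIP* are both LXR targets, and neither receptor transcript moved with *ABCA1*.

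Of 40 further genes of the pathway, listed for processing of SREBP-2, the side branches of the isoprenoids, lipoprotein receptors and sterol carriers, 33 were tested. Diet called 4, all downward, which is 12.1% of those tested beside 12.6% of all genes. *LIPA*, the lysosomal lipase that frees cholesterol from its esters, fell by 0.28 ± 0.07 (log2, SE, n = 48; limma, adjusted p = 0.00356). *LRPAP1*, a chaperone of lipoprotein receptors, fell by 0.26 ± 0.08 (adjusted p = 0.0293), *RXRA*, the partner of the LXR receptors, by 0.21 ± 0.06 (adjusted p = 0.00859) and *ERLIN1*, a protein of the endoplasmic reticulum that takes part in the removal of INSIG1, by 0.15 ± 0.04 (adjusted p = 0.00891).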

How the data were processed

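RNA of 48 SCAT samples was labelled with Cy3 and hybridized to a custom porcine array by the authors, 1 array per pig. The deposited scanner files hold intensity per spot on a linear scale, after the scanner software's background subtraction. A second deposited file holds the authors' log2 values, centred on each array's median and made with R 2.10.0 per the labels. It was used as an alternative, and its columns were matched to samples by the ending of the scanner files' names (0 columns without a sample).

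Here, 60306 non-control spots were used and flagged outlier spots set to missing. Log2 intensities of kept probes were centred on each array's median. Names of probes come from the array's own names and accessions, updated with the Sscrofa11.1 gene table. Diet, line and interaction were fitted to all arrays with limma 3.58.1 in R 4.3.3 (intensity trend), after a test on simulated data. The study's methods used a two-way analysis of variance with the same cut-offs. All members are named. Values per group are given for called members and for the 2 synthesis and 2 uptake and efflux members with the largest uncalled diet differences, and a few further values were chosen after they were seen. Members and lists were chosen with earlier results of these data known. Alternatives changed the scaling, background, filter, probe choice, weights, test, blocks and arrays. Pigs are separate animals. The number of arrays limits the precision. Probe orientation and promoters were not analysed here, and genome positions were not used here. The line comparison of the further pathway genes is not reported here.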

Additional observations from a re-analysis of the deposited data

How the results depend on the processing

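The 4 members called for diet became 1 with 75th percentile scaling, with quantile normalization, with an unmoderated two-way analysis of variance and with array position as a block, namely *INSIG2* each time, beside 10.8%, 11.2%, 12.2% and 8.97% of all genes. There were 2 with normexp background, with no filter on dim probes, with probes well above background on all 48 arrays (27 members) and with the mean of all probes of a gene, beside 10.8%, 1359 of 12888 genes, 13.1% and 12.2%, and 0 within scan date 2, beside 2.37%. Array weights gave 9 calls, beside 18.5%. *INSIG2* was called in 16 of 18 alternatives, and *GGPS1*, *MSMO1* and *NSDHL* in 9 each; their raw p-values of 0.00969, 0.0097 and 0.00914 lay just inside the threshold. Scan date 1 gave 1 call for line (*STARD4*), beside 1.03%. Within low RFI pigs array weights gave 6 calls, beside 1161 of 11083 genes. Within high RFI pigs array weights gave 3 calls, beside 6.16%, and slide as a block gave 2, beside 3.68%. The diet median of all genes was -0.04 as reported, 0.0016 with 75th percentile scaling and -0.02 with quantile normalization. No alternative called a member for the interaction.

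The replicate number of the titles gave the same 4 calls for diet as a replicate block, and 2 within high RFI pigs (*INSIG2* and *NR1H2*), beside 15.2% and 4.47% of all genes. Pigs with the same number share a slide. Their deviations correlated over 0.1 in 45 of 72 pairs, against 181 of 792 pairs with different numbers. The mean r was 0.16 and -0.01, and 18 of 48 arrays were closest to their own number. Arrays with the same number were thus more alike than others. Whether this came from the shared slide was not tested, and the number was not taken as a pairing in the main fit.

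Signs turned for uncalled members. Within scan date 2 the diet log2 fold change was 0.016 for *MVK*, 0.13 for *IDI1*, 0.0090 for *LSS*, 0.075 for *CYP51A1*, -0.061 for *HSD17B7*, 0.018 for *SCAP* and 0.022 for *ABCA1*. Within scan date 1 it was -0.135 for *PMVK*, -0.015 for *FDPS* and -0.15 for *TM7SF2*. With 75th percentile scaling it was 0.018 for *CYP51A1* and 0.017 for *SCAP*, and with quantile normalization 0.029 and 0.031. Array weights gave -0.069 for *PMVK*, -0.0055 for *TM7SF2* and -0.0030 for *HSD17B7*, position as a block -0.017 for *HSD17B7*, and leaving out the 3 arrays of lowest weight -0.056 for *PMVK* and -0.032 for *TM7SF2*.

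The number of members that moved with an anchor gene was counted anew in each alternative, and they need not be the same genes. With *MSMO1* (17 up and 1 down in all) it was 4 within scan date 1, beside 0.162% of all genes upward. With *INSIG1* (15 up and 1 down in all) it was 0 within scan date 1, when no gene of the 11082 moved, 6 within scan date 2, beside 6.83%, and 5 without the 3 arrays, beside 5.71%. With *SREBF2* (3 in all) it was 11 with the first principal component and detection share, beside 10.2%, 1 within scan date 1, beside 4.21%, and 1 within scan date 2, beside 14.8%. With *ABCA1* (1 in all) it was 2 under quantile normalization, beside 0.316% upward, 0 within scan date 1, when no gene moved, and 3 within scan date 2, beside 0.0812% upward and 0.189% downward. The cause was not tested. Over the alternatives the diet median of the synthesis genes lay between -0.19 and -0.01, and that of the uptake and efflux genes between -0.12 and -0.03.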
